A study of Homo sapiens with 6 samples.

Results

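AluJ elements and the monomeric Alu elements FLAM, FRAM and FAM are the oldest branches of the Alu family, and their RNA was followed in SW480 cells that carry a truncated ZC3H18 protein. The members were all transposable element (TE) loci of the Alu family whose subfamily name starts with AluJ, FLAM, FRAM or FAM and that held at least 1 fragment in any of 6 libraries. This gave 86918 of the 728165 TE loci in the tables. AluJb had 32543 loci, AluJr 20446, AluJo 19005 and AluJr4 4790. Of the monomers, FLAM_C had 5046 loci, FLAM_A 2686, FRAM 1504 and FAM 898.

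SW480 is an established human colon adenocarcinoma line. Cells were transduced with a lentivirus and selected with antibiotic, and both constructs were driven by the CMV promoter. The controls carried pLENTI CMV Clover, a fluorescent protein (3 libraries), and the other cells carried pLENTI CMV Z18trunc, a ZC3H18 that lacks the C-terminal part (3 libraries). All cells kept their own ZC3H18 gene, a factor that links the capped end of nuclear RNA to its decay. RNA was selected for poly(A) tails and sequenced from stranded libraries of 18226033 to 22463310 aligned fragments. The study's methods describe 3 separately transduced lines for each construct, so p-values measure the spread between lines. The listed level of ZC3H18 does not separate RNA of the construct from that of the cells' own gene. It was 58.4, 51.3 and 61.8 TPM (gene level corrected for length and depth) in Clover and 752, 739 and 798 TPM in Z18trunc. The epithelial markers EPCAM, KRT8, KRT18 and KRT19 were abundant in all libraries, and 8 of 12 epithelial markers had a mean of at least 1 TPM. KRT20, CDX1 and LGR5 were listed at 0. Of 8 markers of other cell types, 3 passed 1 TPM, and the highest reached 2.01 TPM.

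Alu elements descend from 7SL RNA, the RNA of the signal recognition particle. FLAM and FRAM are free left and right monomers, FAM is an older fossil monomer, and AluJ was the first dimer, made of a left and a right arm joined by an A-rich linker. An Alu that is transcribed on its own uses RNA polymerase III, which is guided by an A box and a B box inside the left arm, and its RNA binds the SRP9 and SRP14 proteins. Most Alu sequence in polyadenylated RNA is instead carried passively, inside the introns and 3′ untranslated regions of messenger RNAs made by RNA polymerase II. For this reason, each locus was described by the gene that surrounds it on the transcribed strand.

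The sequence of a FAM locus is shown as an example of an old monomer. It is the most abundant tested FAM locus that overlaps no exon, its sequence is from hg38, and it runs 5′ to 3′ on the strand of the element. It holds no match to the letters TGGCTCAC, the core of the A box, or GNTCNAGAC, the core of the B box, so that no base is in capitals.
FAM, chr6:43032829-43032961, plus strand, intron of RRP36: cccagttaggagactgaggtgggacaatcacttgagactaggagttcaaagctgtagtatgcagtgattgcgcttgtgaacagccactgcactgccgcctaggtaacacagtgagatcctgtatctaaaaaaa

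Both cores were searched on both strands of every locus, and a match describes the letters of these stretches only. The same letters were used for all subfamilies, and upstream stretches could hold other repeats. A low share, also one below the upstream share, therefore does not show that a box was absent or lost. Over all 86918 loci, the median divergence from the subfamily consensus was 16.2%, against 10.8% in the younger AluS and 6.5% in AluY. The median length was 124 bases for FLAM_A, 131 for FLAM_C, 156 for FRAM, 165 for FAM and between 276 and 289 for the AluJ subfamilies. The A box core was found on the element strand in 22.3% of members, and in 6.55% of equally long stretches 1000 bases upstream. AluS had it in 43% and AluY in 63.2% of loci. On the other strand it lay in 13.6% of members and in 20.4% of AluJb loci. The B box core was found in 26.3% of members on the element strand, 0.183% on the other strand, 5.51% of upstream stretches, 49.4% of AluS and 69% of AluY loci. FLAM_C had the A and B box cores in 25.4% and 29.3% of loci, close to AluJb with 25.4% and 29.2%. The other AluJ subfamilies had these cores in fewer loci, from 19.2% to 22.8% and from 24% to 26.4%. FAM had them in 1% and 1.34% of loci, below its upstream stretches at 4.01% for each. FRAM, the right monomer, held the B box core in 2.46%, against 3.12% upstream, and FLAM_A the A box core in 2.68%, against 3.69% upstream. CpG pairs were likewise fewer, with a median of 1.06 per 100 bases in members, 2.42 in AluS and 4.62 in AluY. A poly(A) signal, AATAAA, was present on the element strand in 27.1% of members and on the other strand in 0.583%. It lay in 17.6% of the members' upstream stretches, and on the element strand of 18.9% of AluS and 13.1% of AluY loci.

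**Figure D1:**
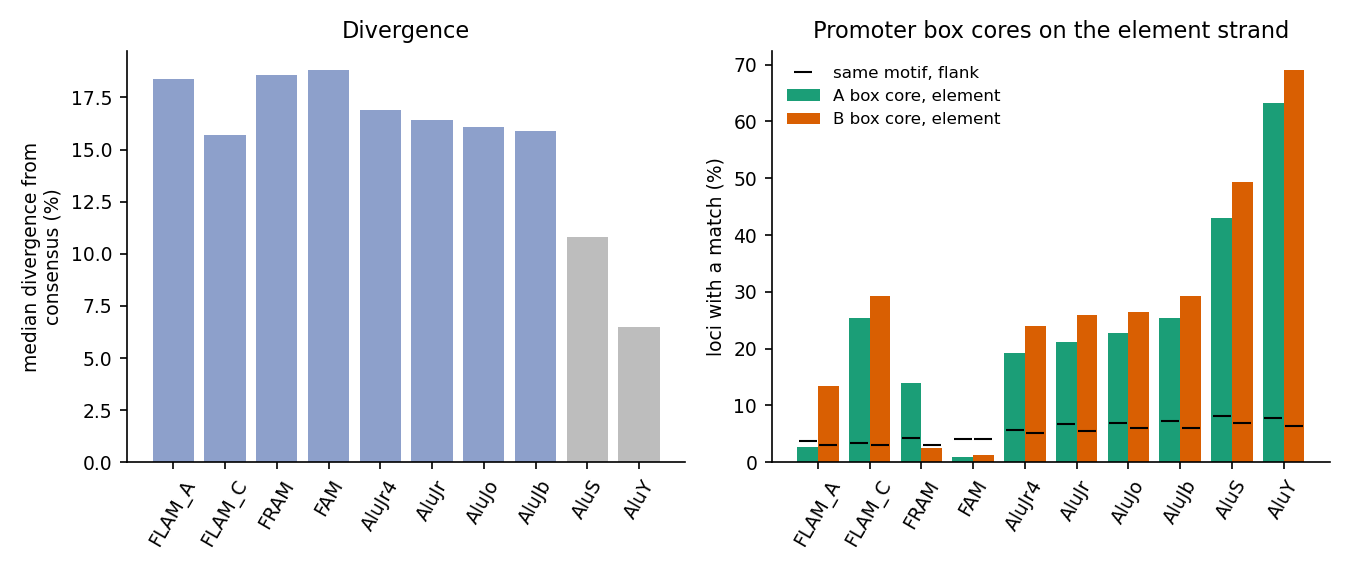
Left, median divergence from the subfamily consensus (%) for the 8 member subfamilies (blue) and for AluS and AluY (grey). Right, percent of loci with the A box core (green) or B box core (orange) on the element strand, with black dashes for equally long upstream stretches; the member subfamilies reach at most 25.4% and 29.3%, and bars lie below the upstream dashes for both cores in FAM, the A box core in FLAM_A and the B box core in FRAM.

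Of the members, 45461 had fragments on their own strand, 46216 on the opposite strand and 4759 on both. Most were rarely sampled. Between 56% and 58.8% of members with own-strand fragments in a library held at most 1 count there, and 22586 were seen in 1 library only. Values are given as counts per 1000000 aligned fragments (CPM). Where a locus has no count, up to 3 counts remain possible, which is 0.134 to 0.165 CPM and covers counting error only. The 1370 loci that reached 30 own-strand counts over the 6 libraries, 3.01% of those with own-strand fragments, carried 56.6% of the own-strand CPM. The 20 most abundant loci carried 13.1%.

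Own-strand RNA of the members summed to 2699, 2859 and 2604 CPM in Clover and to 2823, 2940 and 3146 CPM in Z18trunc. The groups overlapped, since the second Clover library lay above the first Z18trunc library. The means were 2721 ± 129 CPM for Clover and 2970 ± 164 CPM for Z18trunc (SD, n = 3), a log2 difference of 0.13 (exact two-sided permutation p = 0.2). It was 0.08 without Z18trunc replicate 3 and 0.05 over the 1370 loci with at least 30 counts. For 3 against 3 libraries this test cannot go below 0.1. Opposite-strand RNA, the background measured the same way, was 2848, 2739 and 2618 CPM in Clover and 2915, 3066 and 3205 CPM in Z18trunc. Here all Z18trunc libraries lay above all Clover libraries, with a log2 difference of 0.16 (exact permutation p = 0.1). The members' RNA was therefore divided almost evenly between strands, with an own-strand share of 49.9% ± 1.21 in Clover and 49.2% ± 0.297 in Z18trunc (SD, n = 3, exact permutation p = 0.5). In each of the 6 libraries this share was higher in members than in AluS, by 1.34 percentage points on average (paired exact sign-flip p = 0.031, the smallest that 6 pairs allow).

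All TE loci of the LTR, LINE, SINE and DNA classes together went from 23870 ± 663 to 26860 ± 1537 own-strand CPM (SD, n = 3), with no overlap and a log2 difference of 0.17 (exact permutation p = 0.1). Members made up 11.3%, 11.7% and 11.2% of these counts in Clover and 11.1%, 11% and 11.1% in Z18trunc. All 3 Z18trunc shares lay below all 3 Clover shares, although the gap was small (exact permutation p = 0.1). When the members were expressed relative to all TE counts of both strands, the direction of the own-strand difference turned, to a log2 difference of -0.05. AluS and AluY gave the closest comparison. The log2 ratio of members to AluS averaged -1.05 ± 0.0268 for Clover and -1.03 ± 0.0197 for Z18trunc (SD, n = 3), a difference of 0.02 (exact permutation p = 0.4). The ratio to AluY differed by 0.01 (exact permutation p = 0.8), and its sign changed without Clover replicate 2, without Clover replicate 3 or without Z18trunc replicate 2. Summed over all loci, the members' difference from the younger Alu groups stayed within the spread of the libraries.

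Exons held the most own-strand RNA. Loci overlapping an exon of a gene on the transcribed strand numbered 3690 and held 50.9% of the own-strand CPM. Introns held 38% in 32154 loci, regions antisense to a gene 3.7% in 3419 loci, and regions outside genes 7.46% in 6198 loci. Within exons, 3′ untranslated regions dominated, with 1506 loci and 38.6% of the members' own-strand CPM.

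Intron loci summed to 1004, 1081 and 897 CPM in Clover and to 1060, 1155 and 1289 CPM in Z18trunc. These values overlapped, with a log2 difference of 0.23 (exact permutation p = 0.2). On the opposite strand, intron loci gave 980, 873 and 807 CPM in Clover and 1022, 1101 and 1211 CPM in Z18trunc, which did not overlap (log2 difference 0.33, exact permutation p = 0.1). Exon loci moved less. They gave 1386, 1453 and 1422 own-strand CPM in Clover and 1457, 1458 and 1504 CPM in Z18trunc, a log2 difference of 0.05 without overlap. The log2 ratio of intron to exon CPM was 0.18 higher in Z18trunc on the own strand (exact permutation p = 0.2, overlapping, and 0.11 higher without Clover replicate 3) and 0.27 higher on the opposite strand (exact permutation p = 0.1, not overlapping). A larger intron difference was not particular to members. The own-strand log2 differences in introns and exons were 0.27 and 0.08 over all TE loci, and 0.19 and 0.06 in AluS. Loci in 3′ untranslated regions were nearly level, at 1084 ± 29.9 CPM in Clover and 1113 ± 11.9 CPM in Z18trunc (SD, n = 3). Loci in coding sequence went from 102, 104 and 104 CPM to 90.2, 96 and 93.1 CPM, with all Z18trunc values lower (exact permutation p = 0.1). This rested on a single locus in IRAK1. The other 76 coding loci together had 18.7 ± 1.12 CPM in Clover and 18.1 ± 1.49 CPM in Z18trunc (SD, n = 3), with overlap.

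The members' part of the TE RNA was lower in all Z18trunc than in all Clover libraries in 3 of the 4 contexts. Outside genes, they were 8.84%, 9.26% and 8.28% of the own-strand TE counts in Clover and 7.71%, 7.66% and 7.78% in Z18trunc. The 3 Z18trunc values lay close together and below all Clover values, a difference of -1.07 percentage points (exact permutation p = 0.1). The members' own sums outside genes overlapped, at 206 ± 16.4 CPM for Clover and 219 ± 16.5 CPM for Z18trunc (SD, n = 3), while all TE loci outside genes went from 2337 ± 61.6 to 2834 ± 201 CPM. In exons the members' part differed by -0.24 percentage points and antisense to genes by -0.44 points, without overlap (exact permutation p = 0.1 for each). In introns it was 13.3% ± 0.418 and 13.1% ± 0.15 (SD, n = 3), with overlap. AluS outside genes separated the groups too, at 18.8% ± 1.41 and 16.8% ± 0.177 of the TE counts (SD, n = 3), and the log2 ratio of members to AluS there differed by -0.03 with overlap (exact permutation p = 0.8). The AluS part was also lower without overlap antisense to genes, by -1.3 percentage points, and in introns, by -1.27 points (exact permutation p = 0.1 for each). In exons it overlapped. Relative to AluS in introns, members were higher in all 3 Z18trunc libraries than in any Clover library, by 0.04 on the log2 scale (exact permutation p = 0.1).

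**Figure D2:**
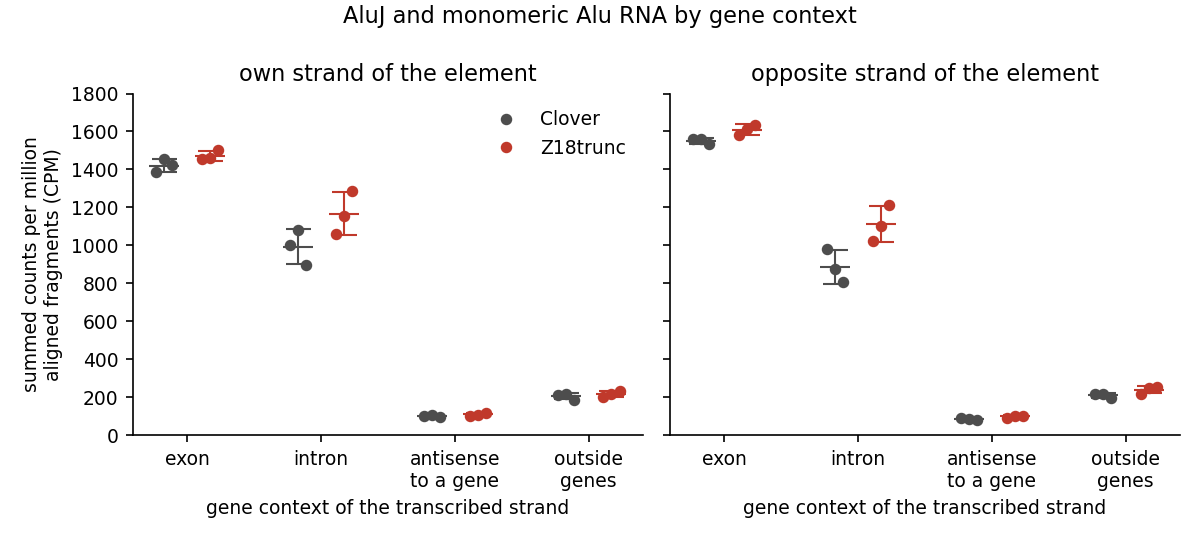
Summed CPM of members on the own strand (left) and opposite strand (right) of the element by gene context; points are libraries of Clover (grey) and Z18trunc (red), and bars are the mean ± SD of 3 libraries. Intron loci show the widest gap between groups, and only on the opposite strand do all Z18trunc points lie above all Clover points there.

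AluJb was the most abundant subfamily, with 1015, 1093 and 968 own-strand CPM in Clover and 1059, 1099 and 1178 CPM in Z18trunc. AluJr followed with means of 693 and 758 CPM, and AluJo with 593 and 650 CPM. FLAM_C and AluJr4 lay far lower and close to each other, with Clover means of 125 ± 4 and 118 ± 1.93 CPM (SD, n = 3). FLAM_A had a Clover mean of 63.6 CPM, FAM 51.9 ± 1.54 CPM and FRAM 50.8 ± 2.85 CPM, so that the last 2 did not differ beyond their spread. These sums depend on the number of loci and on their lengths, and they are not levels per locus.

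All 8 subfamilies had a higher mean in Z18trunc when scaled to aligned fragments, with log2 changes from 0.06 in FRAM (SE 0.1) to 0.18 in FLAM_A (SE 0.09), and all 8 were lower under TMM scaling, with log2 changes from -0.15 to -0.02. In edgeR's quasi-likelihood test, 0 of the 8 passed an adjusted p under 0.05, while 1.89% of all 898 subfamilies were called. At an unadjusted p under 0.05, 1 of the 8 passed, AluJr, against 24.4% of all subfamilies. With uniquely mapped counts 6 of the 8 passed this level, against 28% of all, and 0 were called. DESeq2 also called 0, with 0 at an unadjusted p under 0.05, against 6.24% of all. The median subfamily of all 898 changed by 0.21 with aligned fragments and 0.01 with TMM. The groups did not overlap for AluJr4, FAM, FLAM_A and FLAM_C. The share of all 898 subfamilies without overlap was not counted, and 84.6% of them had a positive log2 change with aligned fragments. FLAM_A, an older left monomer than FLAM_C, was 65.1, 63.7 and 61.9 CPM in Clover and 68.6, 73.9 and 73.9 CPM in Z18trunc. FAM was 50.8, 53.7 and 51.3 CPM in Clover and 56.3, 57.6 and 61 CPM in Z18trunc. The monomers together were 291 ± 8.15 and 320 ± 16 CPM (SD, n = 3), and their log2 ratio to AluJ differed by 0.01 between groups (exact permutation p = 0.7).

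**Figure D3:**
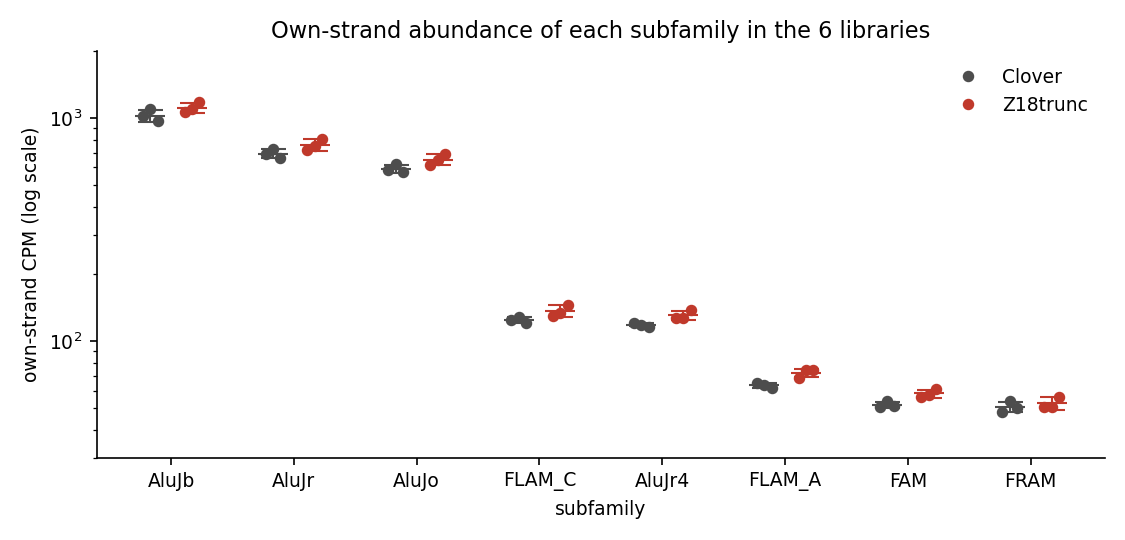
Own-strand CPM (log axis) of the 8 member subfamilies in each library of Clover (grey) and Z18trunc (red), with the mean ± SD of 3 libraries. The groups separate in AluJr4, FAM, FLAM_A and FLAM_C and overlap in AluJb, AluJr, AluJo and FRAM. The share of all TE subfamilies that separate was not counted.

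At single loci, edgeR called 1 of the 1370 tested members at an adjusted p under 0.05, beside 0.201% of all 12456 tested TE loci. At an unadjusted p under 0.05, 84 members were higher in Z18trunc and 29 lower. Over all tested TE loci the corresponding shares were 8.17% higher and 1.76% lower. Under TMM scaling the split turned to 31 higher and 74 lower, and with scaling to opposite-strand TE counts outside exons to 19 higher and 102 lower. All 12456 loci turned likewise, to 473 higher and 583 lower and to 298 higher and 812 lower. The median log2 change was 0.13 in members, 0.17 over all tested TE loci, 0.11 in AluS and 0.17 in AluY. By context, the median was 0.21 in the 404 intron members, 0.11 in the 805 exon members and 0.08 in the 101 members outside genes, against 0.28, 0.12 and 0.22 for all tested TE loci in the same contexts. Counted by rank, 1440 of 45461 members had FPKM values in Z18trunc all above (901) or all below (539) those in Clover, or 3.17%, where all TE loci gave 2.93%. FPKM is the count per kilobase of covered stretch and per 1000000 aligned fragments, with missing values taken as 0.

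The called member was an AluJb at chr2:177222526-177222789 on the plus strand, 264 bases long, in the 3′ untranslated region of HNRNPA3, which encodes a nuclear RNA-binding protein. It had 95, 84 and 73 counts in Clover and 150, 118 and 155 counts in Z18trunc, or 4.11 ± 0.351 and 6.85 ± 0.476 CPM (SD, n = 3). Every Z18trunc library was above every Clover library. The log2 change was 0.73 (SE 0.16, edgeR adjusted p = 0.031), and over the other settings the adjusted p ranged from 0.0086 with uniquely mapped counts to 0.487 with opposite-strand scaling. When a single library was left out, it passed only without Clover replicate 2, and otherwise its adjusted p was 0.061 to 0.139. HNRNPA3 as a gene went from 103 ± 11.2 to 129 ± 10.1 TPM (SD, n = 3), a log2 change of 0.33 (SE 0.1, limma adjusted p = 0.106). HNRNPA3 has processed pseudogenes elsewhere in the genome, among which reads can be divided. Uniquely mapped counts at the locus were 73, 64 and 56 in Clover and 117, 102 and 125 in Z18trunc, a log2 change of 0.82.

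The other loci with the smallest p-values did not pass in the main setting. The AluJr in an intron of SLC2A3, the neuronal-type glucose transporter GLUT3, had 11, 4 and 15 counts in Clover and 37, 19 and 32 counts in Z18trunc. The groups did not overlap, and the log2 change was 1.52 (SE 0.37, edgeR adjusted p = 0.075, range over the other settings 0.024 to 0.266). SLC2A3 has a near-identical neighbour, SLC2A14. Uniquely mapped counts at this locus were 8, 2 and 12 in Clover and 32, 14 and 27 in Z18trunc, a log2 change of 1.69. An AluJr in an exon of the unnamed gene ENSG00000289609 (chr6:43999280-43999538, plus strand) went from 5.59 ± 0.263 to 8.33 ± 0.606 CPM (SD, n = 3, edgeR adjusted p = 0.095). It passed only at a minimum of 100 counts (edgeR adjusted p = 0.045). An AluJb in an intron of ARCN1, a coat protein of Golgi vesicles (chr11:118583472-118583779, plus strand), had 132, 115 and 145 counts in Clover and 234, 154 and 191 in Z18trunc (edgeR adjusted p = 0.131). The AluJr in an intron of TVP23C had 2, 2 and 1 counts in Clover and 11, 5 and 13 in Z18trunc (edgeR adjusted p = 0.187). TVP23C also has a near-identical copy, TVP23B.

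**Figure D4:**
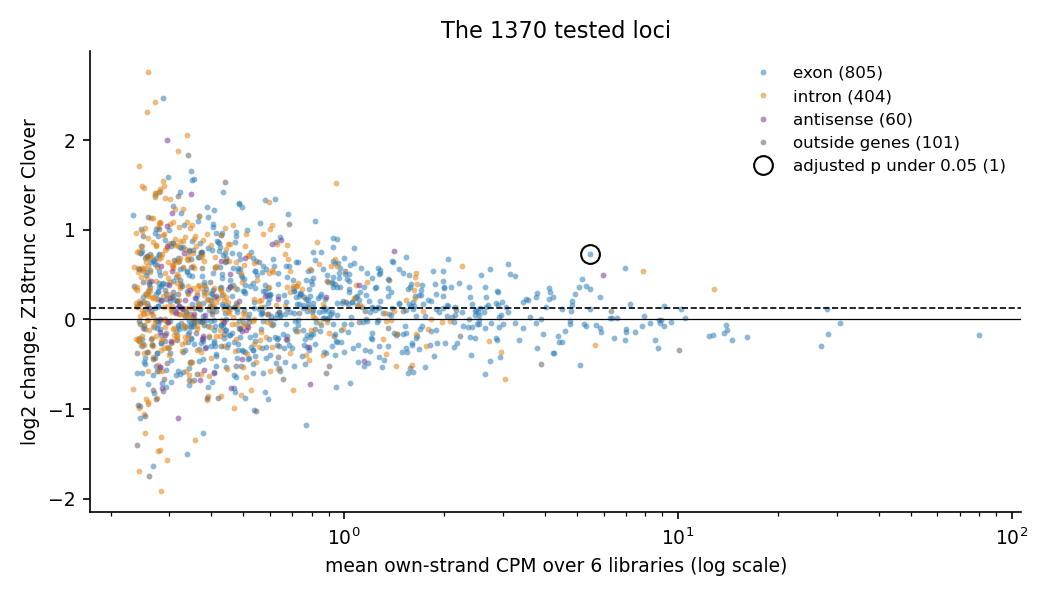
Log2 change (Z18trunc over Clover) against mean own-strand CPM (log axis) for the 1370 tested members, coloured by gene context; the dashed line is their median, 0.13, and the circle is the 1 locus with an adjusted p under 0.05, in HNRNPA3. The spread of the changes narrows with abundance.

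The most abundant members were parts of messenger RNAs. The first was an AluJb of 298 bases at chrX:154011092-154011389 on the minus strand, in IRAK1, a kinase of Toll-like receptor signalling. The annotation places it in coding sequence of some transcripts and in the 3′ untranslated region of others. It had 83.8, 84 and 86.4 CPM in Clover and 73.4, 78.2 and 73.5 CPM in Z18trunc, lower in all 3 libraries (log2 change -0.18, SE 0.09, edgeR adjusted p = 0.534, range over the other settings 0.018 in DESeq2 to 0.797). An AluJr in the 3′ untranslated region of CYB5B, an outer mitochondrial membrane cytochrome, had 31.2 ± 2.07 and 30.3 ± 1.58 CPM (SD, n = 3). An AluJb in that of APOBEC3C, a cytidine deaminase of antiviral defence, had 29.8 ± 3.8 and 26.6 ± 0.468 CPM. CAVIN1, a coat protein of caveolae, carried an AluJr (chr17:42403074-42403228, minus strand) with 29, 30.9 and 29 CPM in Clover and 25.6, 24.7 and 22.1 CPM in Z18trunc. Its groups did not overlap (log2 change -0.3, SE 0.11, edgeR adjusted p = 0.362), and DESeq2 called it with an adjusted p of 0.014. An AluJb in MRPS18B, a mitochondrial ribosomal protein gene, had 17.2 ± 1.91 and 15 ± 1.07 CPM (SD, n = 3).

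The most abundant monomers also lay in 3′ untranslated regions. The FAM in YWHAB, a 14-3-3 protein gene (chr20:44907297-44907477, plus strand), had the rank 4 among all members, with 26.1, 27.7 and 27 CPM in Clover and 28.9, 28.4 and 30 CPM in Z18trunc. YWHAB as a gene went from 357 ± 5.34 to 407 ± 15.4 TPM (SD, n = 3). The FRAM in TNFRSF1B, a receptor for tumour necrosis factor, had 15.7 ± 3.29 and 13.4 ± 0.643 CPM. The FLAM_C in ATF5, a stress-response transcription factor, had 8.82 ± 0.975 and 8.77 ± 0.375 CPM. The FLAM_A in RFLNB had 6.01 ± 0.337 and 5.66 ± 0.631 CPM. Per kilobase of element, these loci ranged from 47.8 CPM in RFLNB to 155 CPM in YWHAB, against 268 CPM in IRAK1 and 244 CPM in CYB5B. None of these monomer loci passed the test in any setting run.

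A host gene with a mean of at least 1 TPM on the same strand could be assigned to 741 of the 805 exon members and 334 of the 404 intron members. Most of the 869 host genes held 1 tested member (722 genes), and POLR2J3 held the most, 6. Exon members had a median log2 change of 0.11 and their host genes 0.14, with 333 of 741 loci above their host. Intron members had a median of 0.21 and their host genes 0.07, with 196 of 334 loci above their host. Among loci with at least 100 counts, locus and host medians were 0.12 and 0.05 in introns and 0.1 and 0.15 in exons. Locus changes are on the count scale and host changes on the log2(TPM + 1) scale, which understates low genes. The gap between them also depends on scaling. Under TMM scaling the median of all tested members was -0.04, against 0.13 with aligned fragments, and hosts were not compared under it. Across exon loci the change of locus and host correlated with a Pearson r of 0.27 and Spearman rho of 0.3 (n = 741), and r was 0.54 among the 113 with at least 300 counts. Across intron loci r was 0.17 and rho 0.16 (n = 334), and r was 0.32 among the 40 with at least 100 counts, where exon loci gave 0.44 (n = 316). Points share libraries, and exon loci share reads with the host, so these are descriptions across loci.

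**Figure D5:**
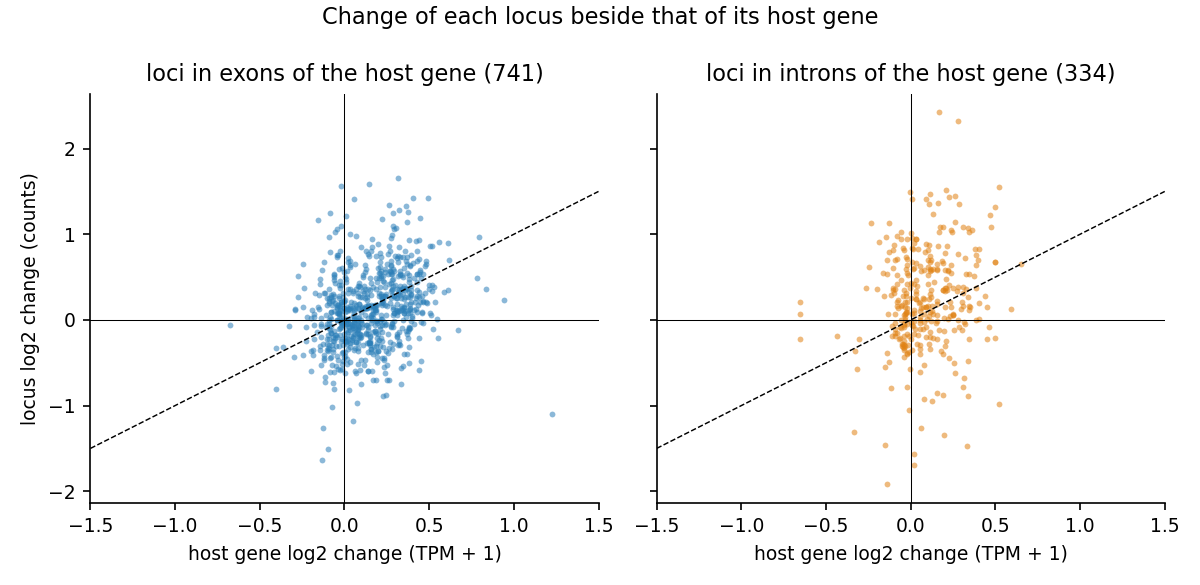
Log2 change of each tested locus (counts) against that of its host gene (TPM + 1), for 741 exon loci (left) and 334 intron loci (right), with the line of equal change dashed. The vertical spread is wider than the horizontal one in both panels, and the intron loci sit higher relative to their hosts, with 196 of 334 above the line.

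Pairs of Alu copies in opposite orientation on 1 RNA can fold into double-stranded RNA, the main substrate of the editing enzyme ADAR. An Alu locus of opposite orientation, with fragments from the same transcribed strand, lay within 1000 bases of 18183 members, or 40% of those with own-strand fragments. They held 44.4% of the own-strand CPM. The members with such a neighbour summed to 1222, 1272 and 1149 CPM in Clover and 1237, 1305 and 1393 CPM in Z18trunc, a log2 difference of 0.11 with overlap (exact permutation p = 0.2). It was 0.07 without Z18trunc replicate 3 and 0.07 without Clover replicate 3. Those without gave a log2 difference of 0.14 (exact permutation p = 0.2). The log2 ratio of both sums differed by -0.03 between groups (exact permutation p = 0.4). With a window of 2000 bases this difference was -0.07 and the groups did not overlap (exact permutation p = 0.1). AluS loci in this window gave a log2 difference of 0.09 with a neighbour and 0.14 without. Members with a neighbour there gave 0.01 in exons and 0.23 in introns, and the part of gene context was not tested.

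Most members with own-strand fragments lay between 10 and 20% divergence. The 310 own-strand loci under 10%, of which 14 were tested, had a log2 difference of 0.02 in summed CPM. The 3507 from 20% upward, of which 90 were tested, had 0.19. The classes from 10 to 15% and from 15 to 20%, with 14021 and 27623 loci, gave 0.1 and 0.14. In every class the groups overlapped (exact permutation p = 0.2 in each). The tables also show how reads were shared among loci. In 90% of the member entries with reads outside the unique count, those reads stood at a weight of 0.5, within 0.01, so the unique share is no plain measure of multiple mapping. Uniquely mapped counts made up 73.5% ± 0.767 of the members' own-strand counts in Clover and 74.2% ± 1.66 in Z18trunc (SD, n = 3). The members' share exceeded that of AluY in all 6 libraries, by 2.82 percentage points on average (paired exact sign-flip p = 0.031). Relative to a weight of 0.5 for all of these reads, the members' counts were 98.6% in both groups and those of AluY 94.8% in Clover and 93.7% in Z18trunc.

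Genes whose products bind, process or transcribe Alu RNA were examined as a list of 45, among them the noncoding RNA NEAT1, all of which had a mean of at least 1 TPM. limma called 0 of them at an adjusted p under 0.05, where 0.015% of all 13300 genes were called. At an unadjusted p under 0.05, 15 were higher in Z18trunc and 0 lower, or 33.3% of the list, while 25.6% of all genes were higher. After quantile normalization these counts were 11 higher and 1 lower in the list, and 1708 higher and 1448 lower over all genes. The list's median log2 change was 0.16, against 0.11 for all genes, and after quantile normalization 0.09, against -0.01. Of the 25 binding and processing genes 11 were higher at this level and all 25 had positive changes, as did 68% of all genes, though ADARB1 (-0.01) and PSPC1 (-0.07) were below 0 after quantile normalization. Of the 20 genes of the RNA polymerase III machinery 4 were higher, with a median of 0.1.

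DHX9, a helicase that unwinds Alu duplexes, was 55, 50.2 and 57.1 TPM in Clover and 75.2, 71.7 and 81.5 TPM in Z18trunc. The groups did not overlap (log2 change 0.49, SE 0.09, limma adjusted p = 0.077). IFIH1, the double-stranded RNA sensor MDA5, went from 1.36 ± 0.187 to 2.09 ± 0.101 TPM, and EIF2AK2, the kinase PKR, from 15.4 ± 1.53 to 20.4 ± 1.13 TPM (SD, n = 3). POLR3B, the second-largest subunit of RNA polymerase III, went from 2.17 ± 0.389 to 3.7 ± 0.621 TPM. SRP54, a subunit of the signal recognition particle, went from 27.9 ± 0.628 to 37 ± 4.46 TPM. The limma adjusted p of these 4 lay between 0.077 and 0.084. The most abundant genes of the list gave small differences. NONO had 504 ± 39.3 and 537 ± 14.8 TPM, HNRNPC 359 ± 22.1 and 388 ± 20 TPM, and U2AF2 328 ± 3.24 and 334 ± 12 TPM (SD, n = 3). In bulk RNA, fewer cells of a type and less RNA per cell cannot be told apart.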

How the data were processed

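The authors trimmed the reads with cutadapt 4.6 (per the labels), mapped them to hg38 and ran SQuIRE on RepeatMasker loci. The deposited TE tables give, for each locus and strand, whole-number counts of uniquely mapped reads and estimated counts that share other reads among loci, neither normalized. The deposited FPKM values divide the estimated count by the covered stretch and the aligned fragments. The authors' gene tables give TPM. Aligner versions are not given in the sources used here.

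Members and gene lists were chosen with earlier results of these data known. Estimated counts were rounded, and loci or subfamilies with at least 30 counts were tested with edgeR 4.0.16, library size being aligned fragments, with Benjamini-Hochberg adjustment over all loci or subfamilies. Genes were tested as log2(TPM + 1) with limma 3.58.1. Sums were compared by exact permutation (scipy 1.17.1). Contexts came from GENCODE 44, in which ZC3H18 has the same coordinates as in the deposited tables, and sequences from hg38 (pysam 0.24.0). Alternatives were TMM, opposite-strand scaling, DESeq2 1.42.0, other filters, unique counts, a replicate block and leaving out each library. Intron-to-exon ratios, shares of TE counts by context (members and AluS), coding loci without IRAK1 and counts relative to a uniform read weight were chosen after seeing the data. The scripts were tested on simulated data. Libraries of a group differed beyond counting noise (chi-square per degree of freedom 1.61 to 1.87).

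Named loci were the 6 most abundant, the 5 with the smallest p, all called and the most abundant of each monomer. Named genes of the list were the 5 with the smallest p and the 4 most abundant. Of these items, 1 gene and some sequences are not reported here.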

Additional observations from a re-analysis of the deposited data

How the results depend on the processing

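With loci of at least 30 counts only, the log2 difference was 0.052 on the own strand and 0.058 on the opposite strand, the ratio to AluS reversed to -0.0017, the ratio to AluY to -0.018, and 173 of 1370 members (12.6%, against 13.6% of all tested TE loci) were separated by rank. Relative to all TE counts of both strands, the own-strand difference was -0.053 and the opposite-strand one -0.016. The exon difference was 0.104 without the 20 most abundant members. When each library was left out in turn, the difference in the ratio to AluY ranged from -0.0088 to 0.042 and that in outside-gene over exon CPM from -0.029 to 0.085. The log2 difference in members antisense to genes ranged from 0.067 to 0.16, that outside genes from 0.027 to 0.143 and the difference in the ratio to AluS from 0.006 to 0.032, with the lowest value without Z18trunc replicate 3 except outside genes, where it was without Clover replicate 3. The number of called members was 0 with TMM scaling, 0 with opposite-strand scaling, 0 with no filter on counts, 2 with DESeq2 (0.146%, against 0.145% of all tested TE loci), 2 with uniquely mapped counts (0.2% against 0.3%), 3 at a minimum of 100 counts (0.739% against 0.942%) and 0 to 1 when a library was left out. The call without Clover replicate 3 was another locus, an exonic FLAM_C at chr7:72998491-72998625 (adjusted p = 0.037), named after its values were seen. The FAM in YWHAB reversed to -0.063 with TMM, -0.17 with opposite-strand scaling and -0.056 with DESeq2. With a library left out, the locus in CYB5B ranged from -0.095 to 0.0023 and that in ATF5 from -0.089 to 0.072. The causes were not tested. Every alternative run called 0 member subfamilies and 0 of the 45 listed genes.

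Replicate numbers gave no sign of pairing, with correlations of same-numbered libraries between -0.04 and -0.01. A replicate block in the edgeR fit called 2 members, in HNRNPA3 and SLC2A3, in place of 1, and it changed no call among subfamilies or listed genes.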
